A study of Arabidopsis thaliana with 6 samples.

Results

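The genes described here are the receptor-like proteins of Arabidopsis thaliana, the family of plant cell-surface receptors that lack a kinase domain. Members were taken by name: a gene belonged if its name in the deposited count table was AtRLP or RLP followed only by a number, and RLP23 was added by its identifier. This gave 51 members among 33602 genes, 48 written AtRLP and 3 written RLP. RLP40, RLP56 and RLP57 are written in capitals throughout and so fell outside the pattern, as did TMM and CLV2, the family members RLP17 and RLP10, which go by their older names. The family was singled out with measured values of the same comparison in view, and RLP23 was selected on its change. Every fold change, call and count of members below is therefore a description of these libraries, and none is given as support for a pattern.

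Leaves of 25-day-old plants grown in 16 h of light and 8 h of dark were sequenced as mRNA libraries. One group was wild type under mock treatment and the other was the pub2pub4 double mutant under mock treatment, with 3 libraries each. PUB2 and PUB4 encode plant U-box proteins, a class of ubiquitin ligases. The labels name neither the mutant alleles, the accession, nor the agent of the mock treatment, and they do not say whether a library came from one plant or a pool.

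Receptor-like proteins carry an extracellular domain, most often of leucine-rich repeats, a membrane-spanning segment and a short cytoplasmic tail. Those that act in immunity bind the adaptor kinase SOBIR1, recruit the co-receptor kinase BAK1 when a microbial ligand is present, and in Arabidopsis signal through the EDS1 and PAD4 module. Other members work in development: TMM patterns stomata, and CLV2 acts in the shoot and root meristems.

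The 6 libraries were of nearly equal depth, between 20506882 and 20732799 expected counts, of which the family took between 8029 and 15867. PUB2 fell by 4.15 and PUB4 by 2.71 on the log2 scale in pub2pub4 (edgeR adjusted p = 0.000184 and 0.000519), so the libraries matched their genotype labels. Of 24 tested markers of mesophyll, stomatal lineage, trichome, vascular and root cells, edgeR called 0 at an adjusted p under 0.05 and 6 had an unadjusted p under 0.05; DESeq2 called LHCB2.1 and KAT1, both lower. Of the 6 root markers NAS2, EXPA7 and COBL9 were at or near 0 in every library and CASP1 was low (0.191 to 1.03 CPM), while PHT1;4 was at 4.85 to 9.28 CPM and SCR at 25.6 to 40.9 CPM; their sum ran from 33.3 to 49.9 CPM in wild type and from 42.3 to 49.7 CPM in pub2pub4. Replicates within a group differed by more than sampling noise, with a chi-square per degree of freedom between 6.33 and 23.9.

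At the level of the whole family, most members were weakly expressed and most lay lower in pub2pub4. Of the 51 members, 46 had enough counts to be tested; RLP5 and RLP25 had no count in any library, and RLP11, RLP15 and RLP28 stayed below 0.6 CPM in each (CPM, the reads of a gene scaled to a common library size). In wild type, 42 members exceeded 1 CPM and 12 exceeded 20 CPM. Divided by transcript length, the median tested member stood at 2.51 CPM per kb in wild type, against 10.3 for all tested genes. The summed level of the 51 members was 765, 722 and 502 CPM in wild type 1, 2 and 3 and 463, 480 and 394 CPM in pub2pub4 1, 2 and 3. All 3 mutant sums lay below the lowest wild-type sum. RLP23, which was selected on its change, is part of these sums. Without it they were 696, 664 and 474 CPM in wild type and 459, 471 and 391 CPM in pub2pub4, so the groups nearly met. In whole leaves, fewer cells of a type that expresses a gene and less RNA of it per cell cannot be told apart.

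Among the 46 tested members, 35 (76.1%, beside 48.5% of all tested genes) had a negative log2 fold change (pub2pub4 over wild type). The other 11 had a positive one. The median of the 46 was -0.47, and the median of all 19019 tested genes was 0.01. The list depends on the filter: 41 of the 46 passed it in all 6 libraries, RLP7, RLP20, RLP39 and RLP52 passed only through wild type, and RLP22 reached it in no complete group. Over those 41 members the median was -0.44, with 31 negative. With one library left out the median of the 46 ranged from -0.30, without pub2pub4 3, to -0.68, without wild type 3. RLP23, RLP39, RLP41, RLP18, RLP43, RLP20, RLP34, RLP42, RLP12, RLP36, RLP19 and RLP38 lay at -1 or below (26.1% of tested members, beside 2.01% of all genes). RLP6, RLP22 and RLP33 lay at 1 or above (6.52%, beside 1.76% of all genes).

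**Figure D1:**
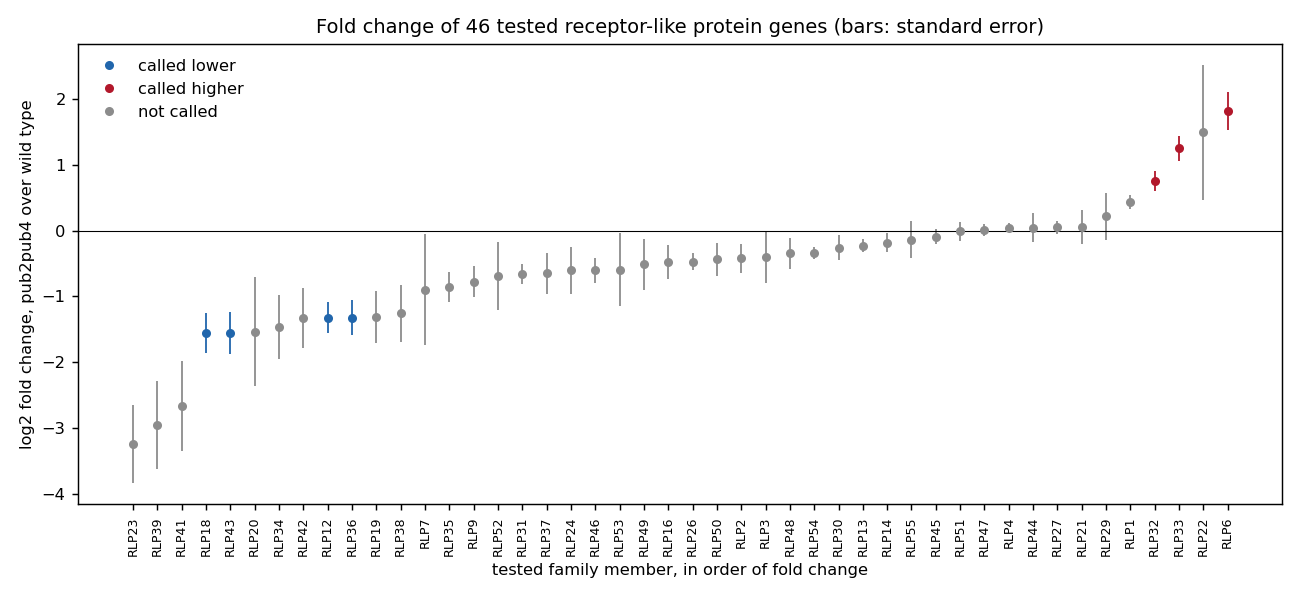
The log2 fold change of each of the 46 tested members (vertical axis, pub2pub4 over wild type) is drawn in order, with bars of 1 standard error and colours for the call at an adjusted p under 0.05. The changes run from -3.25 for RLP23 to 1.82 for RLP6. The 3 members with the most negative changes are not among those called by edgeR.

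With edgeR's quasi-likelihood test at a Benjamini-Hochberg adjusted p under 0.05, taken over all genes, 4 members were lower in pub2pub4 (RLP18, RLP43, RLP12 and RLP36). That is 8.70% of those tested, beside 1.97% of all genes. In the other direction 3 members were higher (RLP6, RLP33 and RLP32), which is 6.52% beside 2.49% of all genes. The remaining 39 were not called. By ranks alone, all 3 mutant libraries lay below all 3 wild-type libraries for 19 members (41.3%, beside 12.7% of all genes) and above them for 4 (8.70%, beside 13.4%). For the other 23 members the groups overlapped. Nothing is read from these shares, because the same comparison brought the family forward. The calls rest on few libraries, in the whole table as well as in this family. With wild type 1, wild type 2 or pub2pub4 2 left out, edgeR called 0 members in either direction. Of all genes it then called 0.349%, 0.229% and 0.25% lower and 0.338%, 0.219% and 0.224% higher. At an unadjusted p under 0.05 were 17, 17 and 22 members, beside 3056, 2729 and 3006 of all 19019 genes. Without pub2pub4 1 RLP36 and RLP43 remained of the lower calls and RLP32 and RLP33 of the higher. Without wild type 3 there were 9 lower calls (beside 1.72% of all genes lower), and all 7 named here were among the members called. Without pub2pub4 3 the lower calls were these 4, while RLP32 was no longer called and RLP22 was called higher. DESeq2, which called more genes throughout (3.72% of all lower and 3.95% higher), called 13 lower and 3 higher members.

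The 4 lower members were all weakly expressed in leaves. RLP12, a gene that can stand in for CLV2 when expressed in its place, is a single-exon gene on chromosome 1 (AT1G71400, chr1:26909792-26912597, plus strand of TAIR10.1). It was measured at 3.47, 5.61 and 3.74 CPM in wild type and at 1.72, 1.83 and 1.57 CPM in pub2pub4. The mutant libraries lay close together, all below the lowest wild-type library. Its log2 fold change was -1.32 ± 0.23 (SE, n = 3 per group; edgeR adjusted p = 0.0234).

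RLP43 (AT3G28890, chr3:10895977-10898900, minus strand, 2 exons) had 4.43, 4.58 and 2.73 CPM in wild type and 1.86, 1.23 and 0.883 CPM in pub2pub4. Both groups had their lowest value in replicate 3, and the groups did not overlap. The log2 fold change was -1.55 ± 0.32 (edgeR adjusted p = 0.0354). RLP43 shares 83.5% of its protein sequence with RLP34, a far more abundant member; the expected counts of RLP43 were whole numbers in all libraries, so no reads had been divided between them. RLP36 (AT3G23010, chr3:8174341-8176911, plus strand, 2 exons) gave 3.66, 4.48 and 3.07 CPM in wild type and 1.96, 1.48 and 1.03 CPM in pub2pub4, again without overlap. Its log2 fold change was -1.32 ± 0.27 (edgeR adjusted p = 0.0353).

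RLP18 (AT2G15040, chr2:6507402-6509319, plus strand, 3 exons) is annotated as a transcribed pseudogene, so its reads need not stand for a receptor. It was at 5.73, 6.79 and 3.79 CPM in wild type and 1.29, 1.68 and 2.55 CPM in pub2pub4, with no overlap. The log2 fold change was -1.56 ± 0.30 (edgeR adjusted p = 0.0331). The gene overlaps another annotated gene by 200 bases, and the sources used here do not say whether reads were counted by strand.

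RLP6 (AT1G45616, chr1:17183347-17186602, minus strand, 1 exon) had the most positive change of the called members. Its level was 1.64, 2.02 and 2.97 CPM in wild type and 8.36, 9.82 and 5.25 CPM in pub2pub4, so the lowest mutant library stood above the highest wild-type library. The log2 fold change was 1.82 ± 0.29 (edgeR adjusted p = 0.0218).

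RLP32 and RLP33 are next to each other on chromosome 3 (chr3:1644882-1648742 and chr3:1648843-1652149, both on the minus strand), with 100 bases between their annotated ends. RLP32 is the receptor for bacterial translation initiation factor IF1. It was the most abundant of the called members, at 18.9, 16.3 and 12.6 CPM in wild type and 24.1, 26.7 and 30.1 CPM in pub2pub4. The libraries of pub2pub4 were all higher, with a log2 fold change of 0.76 ± 0.15 (edgeR adjusted p = 0.0361). RLP33 stood at 2.79, 2.81 and 2.11 CPM in wild type and 5.11, 7.15 and 6.08 CPM in pub2pub4. Here too every mutant library exceeded every wild-type library, by a log2 fold change of 1.25 ± 0.19 (edgeR adjusted p = 0.0160). RLP32 overlaps another annotated gene by 367 bases; RLP33 overlaps none.

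**Figure D2:**
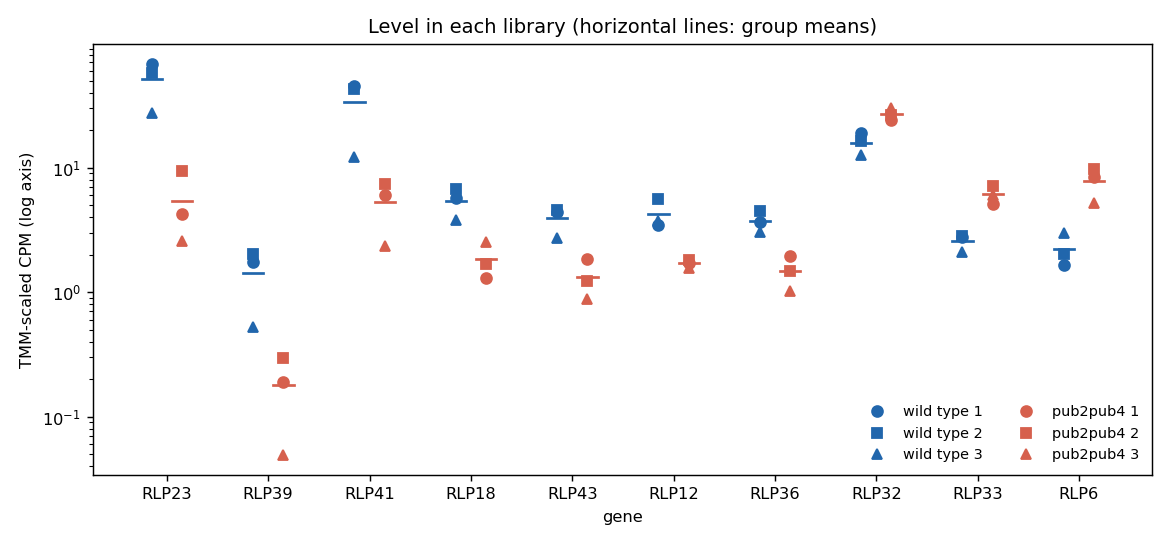
Each point is one library's TMM-scaled CPM (log axis) for the 7 called members and for RLP23, RLP39 and RLP41, with wild type in blue, pub2pub4 in red and lines at the group means. In wild type, replicate 3 is the lowest for all shown genes but RLP12 and RLP6, and for RLP23, RLP39 and RLP41 it lies nearer to the mutant libraries than the other wild-type libraries do.

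The upstream sequences of called members are shown because the family's promoters often held the core of the W-box, the element that WRKY transcription factors bind. The letters TTGAC, read on either strand (GTCAA on the other), were searched in the 250 bases before each annotated transcript start. They occurred in 38 of 49 member promoters (77.6%) and in 44.9% of 26712 promoters of the genome. Matches at 2 or more places were found in 12 members (24.5%) and in 14.1% of all. For RLP3, RLP5, RLP7, RLP20, RLP23, RLP24, RLP25, RLP37 and RLP52 the annotated transcript begins at the coding start, so the window ends there. RLP34, RLP43 and RLP53 hold the match within the same run of letters, as do RLP39 and RLP41. Member promoters are therefore not independent of each other. The promoters of the protein-coding called members whose window holds no other annotated gene are given here from the RefSeq sequence of TAIR10.1, 5′ to 3′ on the strand of the gene, with each match in capitals.
RLP12 (chr1:26909542-26909791, plus strand): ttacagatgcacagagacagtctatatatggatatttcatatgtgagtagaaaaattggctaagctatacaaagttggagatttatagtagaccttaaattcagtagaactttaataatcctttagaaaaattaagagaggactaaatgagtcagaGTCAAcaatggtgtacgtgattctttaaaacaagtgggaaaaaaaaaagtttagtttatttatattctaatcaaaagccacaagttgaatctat
RLP43 (chr3:10898901-10899150, minus strand): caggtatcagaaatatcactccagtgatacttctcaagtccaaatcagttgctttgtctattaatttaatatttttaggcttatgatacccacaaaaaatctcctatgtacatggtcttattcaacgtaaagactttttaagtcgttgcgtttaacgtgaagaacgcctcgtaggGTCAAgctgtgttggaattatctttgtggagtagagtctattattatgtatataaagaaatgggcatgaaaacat
RLP6 (chr1:17186603-17186852, minus strand): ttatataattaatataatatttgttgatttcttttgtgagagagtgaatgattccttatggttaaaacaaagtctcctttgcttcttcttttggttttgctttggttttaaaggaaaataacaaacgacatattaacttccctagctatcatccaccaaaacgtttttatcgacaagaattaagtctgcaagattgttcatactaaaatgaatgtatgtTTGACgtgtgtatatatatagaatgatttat
RLP33 (chr3:1652150-1652399, minus strand): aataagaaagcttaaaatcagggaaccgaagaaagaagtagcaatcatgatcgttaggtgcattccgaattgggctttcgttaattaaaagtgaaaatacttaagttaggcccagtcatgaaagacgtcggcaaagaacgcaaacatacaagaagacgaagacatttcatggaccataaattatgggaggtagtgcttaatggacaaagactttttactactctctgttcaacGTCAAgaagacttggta
Each of the 4 windows holds 1 match, on the strand read as TTGAC for RLP6 and as GTCAA for the other 3, so members that were lower and members that were higher both have it. The promoter of RLP23 held 2 matches. A match is a run of letters, and binding was not measured.

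RLP23 and RLP39 were the members closest to the threshold without passing it. RLP23 (AT2G32680, chr2:13859769-13862614, minus strand, 1 exon) recognises a peptide found in necrosis and ethylene-inducing proteins of bacteria, fungi and oomycetes, together with SOBIR1 and BAK1. It was measured at 68.6, 57.7 and 27.5 CPM in wild type and at 4.25, 9.37 and 2.60 CPM in pub2pub4. The wild-type libraries themselves differed widely, and yet the lowest of them stood well above the highest mutant library. Its log2 fold change was -3.25 ± 0.59, with an edgeR adjusted p of 0.0544. With wild type 3 left out the adjusted p was 0.0554, and without each other library in turn it ranged from 0.0584 to 0.177. DESeq2 called it (adjusted p = 2.45e-05).

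RLP39 had 1.73, 2.02 and 0.527 CPM in wild type and 0.191, 0.296 and 0.0490 CPM in pub2pub4, which corresponds to between 1 and 6 counts per mutant library. It passed the filter only through wild type. Its log2 fold change was -2.95 ± 0.67 (edgeR adjusted p = 0.0505), and DESeq2 called it (adjusted p = 0.00223). Just inside the threshold were RLP32 and RLP43, with adjusted p of 0.0361 and 0.0354.

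Known receptors of microbial molecules other than RLP23 and RLP32 did not move as one. RLP42, the receptor for fungal endopolygalacturonases, stood at 21.5, 18.2 and 8.09 CPM in wild type and at 7.66, 7.61 and 3.77 CPM in pub2pub4. Wild type 3 came close to the mutant libraries. The log2 fold change of -1.33 ± 0.45 was not called by edgeR (adjusted p = 0.191) but was called by DESeq2 (adjusted p = 0.00301). RLP1, which mediates the response to the Xanthomonas elicitor eMax, was at 5.69, 5.81 and 5.94 CPM in wild type and at 8.36, 7.65 and 7.55 CPM in pub2pub4. Its groups were tight and did not overlap, with mutant levels higher, but the log2 fold change of 0.43 ± 0.11 missed the threshold (edgeR adjusted p = 0.0646).

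RLP30, which takes part in the response to a Sclerotinia elicitor, had 4.10, 5.12 and 4.07 CPM in wild type and 4.54, 3.36 and 3.19 CPM in pub2pub4. Its groups overlapped (log2 fold change -0.26 ± 0.19, edgeR adjusted p = 0.504). The whole span of RLP30, 2694 bases, lies within another annotated gene. RLP3, the product of RFO2, a locus for resistance to Fusarium, was at 1.80, 2.49 and 1.03 CPM in wild type and 1.96, 0.917 and 1.15 CPM in pub2pub4, an overlap in both directions (-0.40 ± 0.39). RLP52, with a role in powdery mildew resistance, was close to the detection filter at 0.867, 1.08 and 0.575 CPM in wild type and 0.716, 0.691 and 0.147 CPM in pub2pub4 (-0.69 ± 0.52).

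RLP51, encoded by SNC2 and known for an autoimmune mutant form, had 12.3, 13.9 and 11.9 CPM in wild type and 15.1, 10.7 and 12.0 CPM in pub2pub4. The groups were intermingled, and the log2 fold change was -0.01 ± 0.14. RLP44, which links cell wall state to brassinosteroid signalling, was at 2.26, 1.62 and 1.68 CPM in wild type and 1.77, 1.83 and 2.16 CPM in pub2pub4 (0.05 ± 0.23). RLP55 stood at 0.771, 1.03 and 1.15 CPM in wild type and 0.907, 0.789 and 0.981 CPM in pub2pub4 (-0.14 ± 0.28). None of these was called, and a small fold change with such an error does not show that the levels were the same.

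The members with the highest levels per transcript length in wild-type leaves were RLP54, RLP4, RLP34 and RLP23, which together held 34.9% of the family's summed wild-type CPM. RLP54 was at 29.3, 31.7 and 25.3 CPM per kb in wild type and 22.6, 23.8 and 21.9 in pub2pub4. Its groups did not overlap, with a log2 fold change of -0.34 ± 0.09 (edgeR adjusted p = 0.0798, DESeq2 adjusted p = 0.0318). RLP4 was at 23.8, 22.2 and 25.3 CPM per kb in wild type and 24.4, 24.2 and 24.7 in pub2pub4, and its groups overlapped (0.04 ± 0.07). RLP34 was at 28.2, 20.3 and 9.21 CPM per kb in wild type and 7.73, 8.66 and 4.56 in pub2pub4. The span within wild type was wide, although the groups did not overlap, and the log2 fold change was -1.46 ± 0.48 (edgeR adjusted p = 0.192).

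In the order of wild-type level per kb, RLP54 (mean 28.8) and RLP4 (23.8) have ranges that meet at 25.3, and those of RLP4, RLP34 (19.2) and RLP23 (18.0) overlap. These neighbours do not differ beyond their spread. RLP47 (15.9), RLP26 (13.6), RLP41 (12.6), RLP19 (11.6) and RLP38 (11.5) followed.

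The genes of the family are unevenly placed. By the RefSeq annotation of TAIR10.1, 14 members are on chromosome 1, 12 on chromosome 2, 15 on chromosome 3, 6 on chromosome 4 and 4 on chromosome 5. With neighbours defined as family genes at most 25000 bases apart, 34 members fall in 13 arrays and 17 stand alone. The 4 genes RLP39, RLP40, RLP41 and RLP42 form one array on the minus strand of chromosome 3, and their proteins are 83.5% to 93.5% identical.

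Fold changes within this array were unequal. RLP41, chosen for its values, was at 45.6, 42.6 and 12.1 CPM in wild type and at 6.07, 7.40 and 2.35 CPM in pub2pub4. Wild type 3 was far below the other wild-type libraries, still above the mutants, and the log2 fold change was -2.66 ± 0.68 (edgeR adjusted p = 0.115). DESeq2 called RLP41 lower. RLP40, which lies 85 bases from RLP41, was at 41.8, 45.9 and 30.5 CPM in wild type and at 50.5, 41.2 and 13.8 CPM in pub2pub4. Its groups overlapped (-0.16 ± 0.49). Neither this difference between neighbours nor the next was itself tested.

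RLP22 and RLP23 are 3471 bases apart and had changes of opposite sign. RLP22 was near the detection filter in wild type, at 0.385, 0.886 and 0.527 CPM. In pub2pub4 it was at 3.20, 1.83 and 0.0490 CPM, so that the mutant libraries held both the highest and the lowest value (1.49 ± 1.03, edgeR adjusted p = 0.493). Without pub2pub4 3 its log2 fold change was 2.06 (edgeR adjusted p = 0.0280). In the other arrays, and apart from RLP32 and RLP33, the members with a positive change were RLP21, RLP27 and RLP47, at 0.06, 0.05 and 0.01. RLP18 and RLP19 were at -1.56 and -1.31, RLP37 and RLP38 at -0.65 and -1.25, RLP34 and RLP35 at -1.46 and -0.85, and RLP30 and RLP31 at -0.26 and -0.66.

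**Figure D3:**
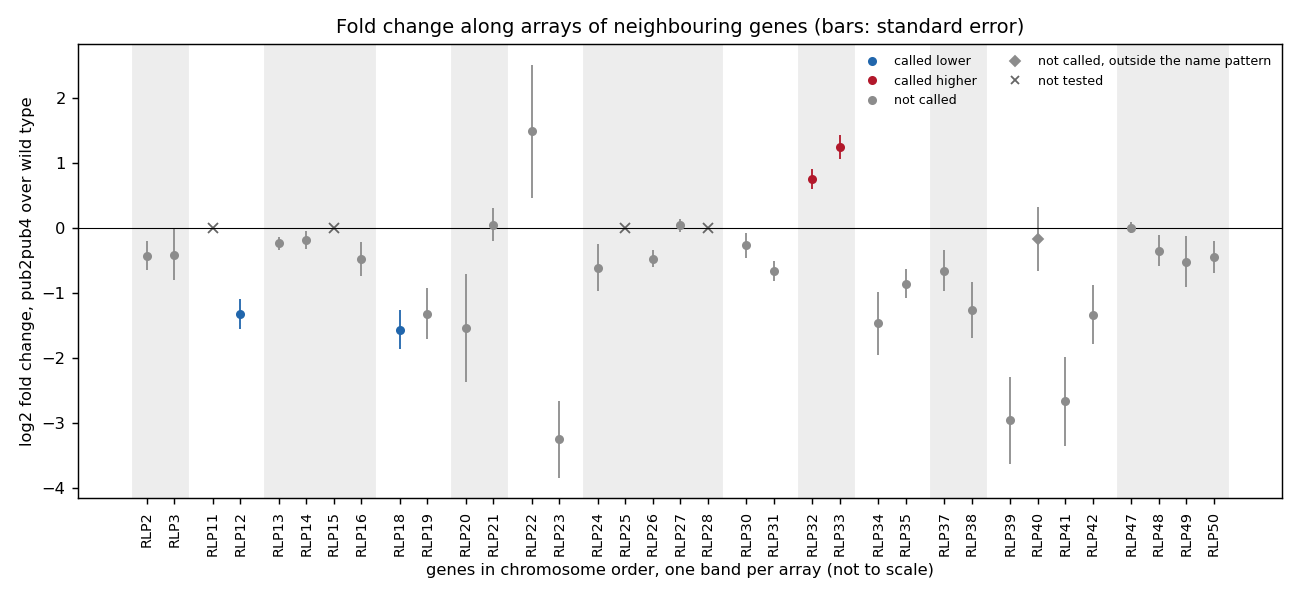
The log2 fold change (vertical axis, bars of 1 standard error) is plotted for the genes of the 13 arrays in chromosome order, one shaded or white band per array; crosses mark genes without enough counts and the diamond marks RLP40, which is outside the name pattern. RLP22 and RLP23 lie on opposite sides of 0, RLP32 and RLP33 both above it, and RLP39, RLP41 and RLP42 below RLP40.

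Near-identical genes can share reads, and the deposited values show where this happened. Expected counts were fractional in 10 members, and each became whole in all 6 libraries, within 0.015, when added to a particular other gene or block of genes. RLP34 paired in this way with RLP35, RLP42 with RLP40, and RLP47 to RLP50 formed 1 block with a further gene. RLP3, RLP26 and RLP46 each paired with a gene annotated on the opposite strand at the same place, so reads were divided there between genes of opposite strands. For the first 2 pairs, the longest coding run that both genes share without a mismatch is 242 and 244 bases. A stretch of read lying wholly within such a run matches both genes equally. Shorter shared runs were not listed, so these need not be the only places where reads were divided. The runs are printed from the RefSeq sequence of TAIR10.1 on the coding strand.
RLP34 and RLP35 (chr3:3452218-3452459, minus strand, and chr3:3471823-3472064, plus strand): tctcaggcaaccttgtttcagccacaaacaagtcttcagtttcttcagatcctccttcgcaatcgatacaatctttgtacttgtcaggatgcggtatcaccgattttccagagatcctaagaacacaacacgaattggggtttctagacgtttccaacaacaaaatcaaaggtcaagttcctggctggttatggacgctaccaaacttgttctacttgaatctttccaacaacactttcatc
RLP40 and RLP42 (chr3:9108393-9108636 and chr3:9119089-9119332, minus strand): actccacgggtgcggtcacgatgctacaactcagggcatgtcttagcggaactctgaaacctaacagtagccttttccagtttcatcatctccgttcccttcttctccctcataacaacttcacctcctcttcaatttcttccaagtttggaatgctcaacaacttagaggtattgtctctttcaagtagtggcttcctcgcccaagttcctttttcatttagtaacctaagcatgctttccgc

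Summing the genes that share reads removes the division between them. RLP34 with RLP35 then had 88.4, 65.3 and 31.0 CPM in wild type and 25.4, 28.9 and 15.5 CPM in pub2pub4, a log2 fold change of -1.41 ± 0.46 (edgeR adjusted p = 0.183), close to that of RLP34 alone. RLP42 with RLP40 had 63.3, 64.1 and 38.6 CPM in wild type and 58.1, 48.8 and 17.6 CPM in pub2pub4, and the groups of the sum overlapped (-0.42 ± 0.48). RLP40 is the more abundant of the pair, so the sum mostly follows it and does not show how the division of reads affects RLP42. Over the 36 tested members with whole counts the median log2 fold change was -0.45, with 26 negative.

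Members also differ in the structure of their genes and proteins. The proteins, translated from the annotated coding sequence of 49 members, range from 218 to 1083 residues with a median of 811. The pattern of 2 glycines with 3 residues between them, known from the membrane-spanning segment through which receptor-like proteins bind SOBIR1, was found in the last 100 residues of 37 of the tested members and absent from 7. Those with it had log2 fold changes from -3.25 to 1.82 with a median of -0.59. Of these 37, edgeR called 6 (beside 4.46% of all genes in either direction) and DESeq2 called 15 (beside 1460 of all 19019 genes). An unadjusted edgeR p under 0.05 was found for 18 of the 37, beside 3740 of all 19019 genes. Those without it lay between -0.78 and 0.43 with a median of -0.09. Both edgeR and DESeq2 called 0 of these 7, and 3 of the 7 had an unadjusted edgeR p under 0.05. The difference between these classes was not tested. The search finds letters and does not place them in the membrane.

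By exon number, 39 members have 1 or 2 annotated exons, 4 have 3 or 4, and 8 have 5 or more. The 35 tested members with 1 or 2 exons spanned -3.25 to 1.82 with a median of -0.59. The 7 tested members with 5 or more exons spanned -0.78 to 0.43 and are nearly the same genes, since 6 of them also lack the glycine pattern. RLP4 has 9 exons.

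The family's level also varied between replicates of one genotype. Wild type 3 was the lowest of the wild-type libraries for 33 of 46 tested members (71.7%, against 36.7% of all tested genes), and pub2pub4 3 was the lowest mutant library for 28 (60.9%, against 35.9%). Among the 12 members at -1 or below, wild type 3 was the lowest of its group for 11 and pub2pub4 3 for 11. The same library stood low for SOBIR1, at 160 CPM against 236 and 251 in the other wild-type libraries. The total of wild type 3, 20506882 expected counts, was the lowest of the 6, next to 20517172 in wild type 2. Levels are scaled to the totals as adjusted by TMM.

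**Figure D4:**
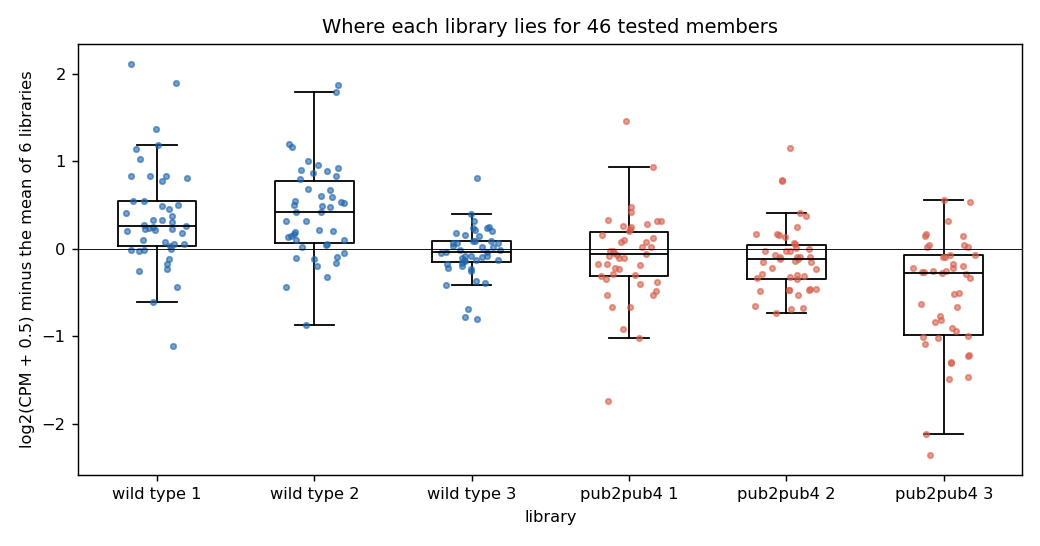
Each point is a tested member's log2(CPM + 0.5) minus its mean over the 6 libraries, with boxes for the quartiles and median and whiskers to the farthest point within 1.5 interquartile ranges. The medians are 0.25, 0.42 and -0.04 for wild type 1, 2 and 3 and -0.07, -0.12 and -0.28 for pub2pub4 1, 2 and 3, so wild type 3 sits beside the mutant libraries for the typical member.

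Genes that act with receptor-like proteins were measured from lists of signalling partners and of receptor-like proteins under other names. Of 33 such genes tested, 4 were lower in pub2pub4 (SOBIR1, BIR1, BIK1 and CLV1), 1 was higher (BAM3) and 28 were not called, beside 1.97% of all genes lower and 2.49% higher. Their median log2 fold change was -0.11. SOBIR1, the adaptor kinase, was at 236, 251 and 160 CPM in wild type and at 73.4, 113 and 83.2 CPM in pub2pub4. The groups did not overlap, and the log2 fold change was -1.26 ± 0.23 (edgeR adjusted p = 0.0435).

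BIR1, a kinase that restrains BAK1, was at 149, 154 and 137 CPM in wild type and 93.6, 106 and 109 CPM in pub2pub4 (-0.51 ± 0.08, edgeR adjusted p = 0.0169). BIK1, a kinase in the cytoplasm that receptor complexes phosphorylate, was at 32.0, 40.0 and 33.3 CPM against 22.2, 25.6 and 25.4 CPM (-0.53 ± 0.10, edgeR adjusted p = 0.0337). Neither gene overlapped between groups. CLV1, a receptor kinase of the CLAVATA pathway in which CLV2 also acts, was at 54.0, 56.7 and 54.3 CPM against 31.0, 33.6 and 33.6 CPM (-0.75 ± 0.07, edgeR adjusted p = 0.00282). BAM3, a relative of CLV1, was at 45.4, 42.9 and 36.1 CPM against 64.1, 53.3 and 61.4 CPM (0.52 ± 0.10, edgeR adjusted p = 0.0344). The CLV1 call alone held with any one library left out. SOBIR1 kept its call only without wild type 3 and lost it when no filter on low counts was used, BIK1 only without pub2pub4 3, BIR1 without wild type 3, pub2pub4 1 or pub2pub4 3, and BAM3 in none of the 6.

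The co-receptor BAK1 was at 55.7, 63.7 and 54.6 CPM in wild type and 55.4, 56.6 and 56.5 CPM in pub2pub4 (-0.05 ± 0.07). In the EDS1 module edgeR called 0 of 6 tested genes, with 2 at an unadjusted p under 0.05, and DESeq2 called PAD4 and SAG101. EDS1 was at 61.9, 48.0 and 41.2 CPM against 27.5, 37.6 and 42.7 CPM, and the groups overlapped (-0.49 ± 0.21, edgeR adjusted p = 0.267). PAD4 was at 38.0, 29.1 and 21.8 CPM against 16.0, 18.2 and 15.1 CPM, without overlap (-0.85 ± 0.20, edgeR adjusted p = 0.0704). The helper ADR1 was at 16.3, 14.8 and 15.1 CPM against 18.1, 19.5 and 11.8 CPM (0.10 ± 0.18).

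Family members under other names were not called in either direction. TMM was at 11.6, 11.8 and 14.2 CPM in wild type and 11.7, 14.2 and 11.3 CPM in pub2pub4 (-0.01 ± 0.13), and CLV2 was at 11.5, 12.9 and 9.15 CPM against 12.6, 13.4 and 12.0 CPM (0.18 ± 0.13). LYM1, LYM2 and LYM3, receptor-like proteins with LysM domains that bind bacterial peptidoglycan or fungal chitin, had log2 fold changes of 0.17, -0.08 and 0.05.

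**Figure D5:**
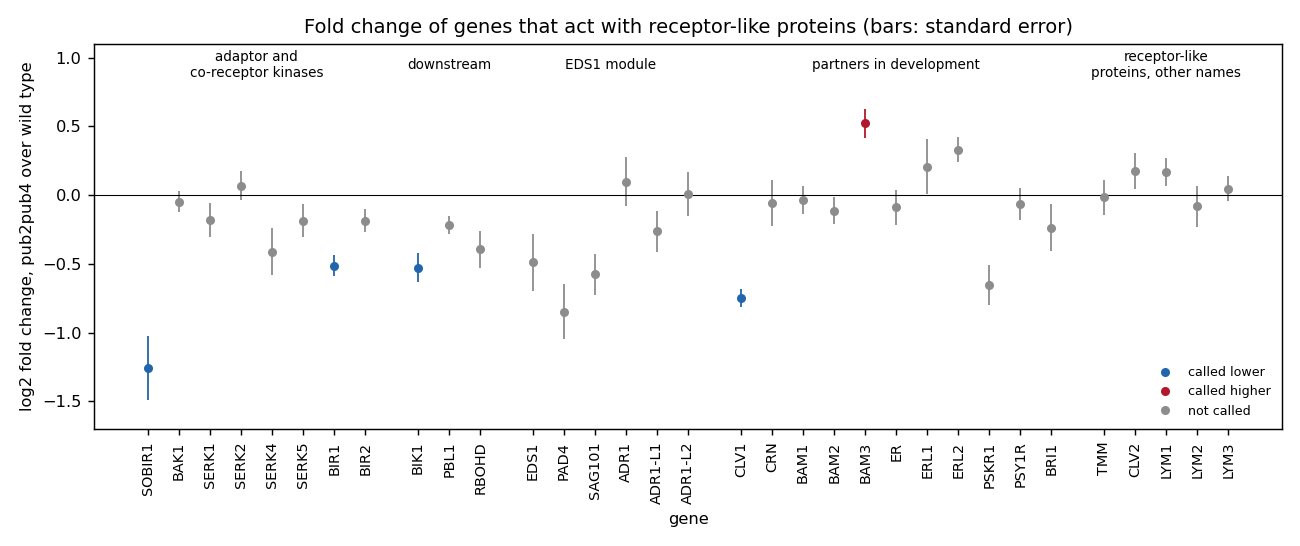
The log2 fold change (pub2pub4 over wild type, bars of 1 standard error) is shown for the 33 tested genes that act with receptor-like proteins, grouped by list and coloured by the call at an adjusted p under 0.05. SOBIR1 at -1.26 is the lowest point, BAK1 lies at -0.05, and BAM3 at 0.52 is the one gene called higher.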

How the data were processed

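The authors deposited one table of expected counts per gene with a transcript length, for 3 wild-type and 3 pub2pub4 leaf libraries. The submitters' processing notes name TopHat2 2.1.0, RSEM 2.1.30 and TAIR10, without saying what each was used for; no source used here states the strand setting. Of the values, 95.1% were whole numbers. Counts were rounded, and genes with too few were dropped (edgeR's filterByExpr, minimum count 10, minimum total 15). Libraries were scaled with TMM, and the 2 genotypes were compared over all 19019 genes kept with the quasi-likelihood test of edgeR 4.0.16 in R 4.3.3, robust, with Benjamini-Hochberg adjustment and a threshold of 0.05. Levels are TMM-scaled CPM; SE is the fold change over the root of F. The labels do not say that libraries of a group came from separate plants, so the p-values cover only the variation among the libraries, which may be technical. DESeq2 1.42.0, limma-voom (limma 3.58.1), other scalings and filters, and each library left out were tried, and the test was run on simulated data. Positions, promoters and proteins came from RefSeq's TAIR10.1 by gene identifier, while the table holds no coordinates.

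The members and gene lists were chosen with earlier results of these data known. Per-library values are given for called members, the 2 just outside the threshold, the 4 highest per length, those with a known function, and named partners. Of 72 list symbols, 6 matched no row: BIR3, PBL29, PBL30, PBL31, NRG1.1 and NRG1.2.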

Additional observations from a re-analysis of the deposited data

How the results depend on the processing

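The count of 4 lower members became 13 with a replicate block (beside 3.03% of all genes lower) and 13 with DESeq2 (3.72%). It became 1 (RLP23) with a filter of 5 CPM in 3 libraries (2.25%), which drops all 4. Tested against a 1.5-fold change it was 0, and of all genes that test called only 0.0684% lower and 0.0684% higher. With the block RLP18, RLP6 and RLP32 were no longer called (adjusted p = 0.0649, 0.0545 and 0.0878). The 3 higher members became 1 with the block and 0 against 1.5-fold. The 4 lower partner genes became 8 with the block, 7 with DESeq2 and 0 against 1.5-fold, and the 1 higher partner became 0 against 1.5-fold. Leaving out one library at a time gave 0 to 9 lower members (beside 0.229% to 2.36% of all genes) and 0 to 3 higher members (0.219% to 3.93%). It gave 1 to 5 lower partners and 0 higher partners, and medians of -0.68 to -0.30 for the tested members. The median of -0.47 moved to -0.68 without wild type 3, and to -0.30 without pub2pub4 3 and -0.33 without wild type 2. Whether the replicate numbers pair libraries across genotypes is not stated in the labels and was not tested. The same-number correlations of deviations were small, at 0.134, 0.058 and 0.156, and every library correlated best with its own number. With one library left out, the sign turned in 6 of the 46 tested members, RLP4 (-0.012 to 0.086), RLP21 (-0.10 to 0.22), RLP29 (-0.077 to 0.63), RLP44 (-0.051 to 0.21), RLP47 (-0.072 to 0.053) and RLP51 (-0.17 to 0.089), none of them called. Where a count moved with the block, DESeq2 or the 1.5-fold test, the cause was not tested. Reading the name pattern without regard to letter case, which adds RLP40, RLP56 and RLP57, and summing genes that share reads, both chosen after seeing the data, gave 4 and 5 lower members and 3 higher ones each.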

Other observations

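Some members varied more within a genotype than most did between genotypes. In pub2pub4, RLP53 was at 14.7, 10.9 and 3.53 CPM, a highest value 4.17 times the lowest. In wild type, RLP41 spanned 3.78 times and RLP34 3.06 times, with wild type 3 the lowest in both. A ratio of 3 or more was seen for 3 tested members in wild type and 6 in pub2pub4, the latter including RLP22, RLP39 and RLP52 at a few counts per library; RLP7 and RLP20 were at 0 in 1 pub2pub4 library and have no ratio there. These genes were named after their values were seen.

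RLP57, outside the name pattern, was at 6.50, 6.01 and 6.23 CPM in wild type and at 8.07, 7.55 and 8.58 CPM in pub2pub4. It shares 81.2% of its protein with RLP44 and did not overlap between groups (log2 fold change 0.37 ± 0.11, edgeR adjusted p = 0.103). RLP56 had a log2 fold change of 0.40 ± 0.27.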
